A study of Mus musculus with 10 samples.

Results

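Ghrelin (*Ghrl*), its acyltransferase (*Mboat4*), somatostatin (*Sst*) and the homeobox gene *Hhex* were followed through every single-cell library of the fetal mouse pancreas series, as 4 genes of the 27716 listed in all of the matrices used. They were taken as a named set of 2 peptide hormones and the partner gene of each, with no threshold on a measured value. The data were UMI counts (reads collapsed to unique molecules) from 8 independent 10x Chromium libraries, each a pool of whole pancreata. Wild-type Swiss Webster embryos gave 4 libraries made with the version 1 (v1) kit, 1 from E12.5 (embryonic day), 2 batches of different litters from E14.5, and 1 from E17.5. They gave 3 more with the version 2 (v2) kit, 1 for each of these days. The v1 suspensions were sorted for live cells, whereas the v2 Swiss Webster suspensions were also depleted of cells positive for CD140a, a surface protein of mesenchyme. The last library came from E14.5 Fev-Cre; ROSA26mTmG embryos on a C57BL/6J background, all from the same litter. In these embryos Cre driven by *Fev* regulatory sequence switches a cell and its descendants from tdTomato to GFP. GFP+ cells were sorted and loaded together with GFP− TdTomato+ cells, so cell proportions in this library were set by the sort. No group was treated, embryos within a pool could not be told apart, and every test below was made over libraries. Shares of cells pooled over libraries, or within 1 library, carry counting intervals over cells and no test.

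Ghrelin is the peptide of the epsilon cell, an islet cell type that is abundant before birth and rare in the adult. Its receptor recognizes the hormone only after a medium-chain fatty acid has been attached to a serine near the start of the peptide, and this step is carried out by the membrane enzyme that *Mboat4* (also called GOAT) encodes. Somatostatin is the inhibitory peptide of the delta cell, which restrains insulin and glucagon release from neighboring beta and alpha cells, and Hhex is a transcription factor that delta cells need for their identity. In the developing pancreas most endocrine cells pass through a *Neurog3*-expressing (Ngn3+) and then a *Fev*-expressing (Fev+) progenitor state before they switch on a hormone. By lineage tracing the paper found only a part of the epsilon cells to come from *Fev*-expressing cells, at E14.5 and at E17.5. Glucagon (*Gcg*), the alpha cell hormone, was measured beside the 4 genes.

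The part of each hormone message that encodes the secreted peptide is shown first, since it holds the residue that the *Mboat4* product acts on and the shorter and longer form of somatostatin. On GRCm38, *Ghrl* (ENSMUSG00000064177) lies at chr6:113716119-113719880 on the minus strand. The codons of mature ghrelin span exons 2 and 3 between 113719182 and 113719360, as codons 24 to 51 of a reading frame of 117. *Sst* (ENSMUSG00000004366) lies at chr16:23889573-23890958, also on the minus strand. The codons of somatostatin-28 fill 23889732 to 23889815 of its exon 2 and are the last 28 of a reading frame of 116. Both stretches are printed 5′ to 3′ on the coding strand, from GENCODE transcripts. Capitals mark the codon of the serine that the *Mboat4* product acylates in the first, and the codons of the shorter form, somatostatin-14, in the second.
Ghrl, ghrelin codons: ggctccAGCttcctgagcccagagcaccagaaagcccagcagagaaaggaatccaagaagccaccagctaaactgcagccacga
Sst, somatostatin-28 codons: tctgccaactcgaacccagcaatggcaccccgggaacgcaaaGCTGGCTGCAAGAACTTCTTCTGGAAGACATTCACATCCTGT
*Mboat4* (ENSMUSG00000071113) lies at chr8:34115030-34125182 and *Hhex* (ENSMUSG00000024986) at chr19:37434810-37440731, both on the plus strand. *Gm26982* and *Gm44033* overlap *Ghrl* and *Gm39158* overlaps *Mboat4*, in each case on the opposite strand. No annotated gene overlapped the 4 on their own strand.

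After removal of barcodes with under 200 genes, 57982 cells remained, with a median of 2952 to 4332 UMIs in the v1 libraries and 7503.5 to 11256.5 in the v2 ones, and pairs of libraries shared at most 1.79% of the barcodes of the smaller. The endocrine compartment held 8871 cells. From these, 255 cells that carried genes of mutually exclusive compartments were set aside as doublets. After clustering, a further 998 cells were set aside because their clusters were led by markers of another compartment, and in the v2 Swiss Webster libraries those had a median of 13205 to 19169 UMIs against 4714 to 10351 in the endocrine cells kept. The endocrine cells had been clustered without the 4 genes, *Gcg* and the genes of the lists described below, 31 genes in all, and the clusters of the 7618 cells that remained were named from other marker genes. This gave 1787 alpha-like, 1272 beta-like, 204 epsilon-like, 276 delta-like, 1435 Ngn3+-like and 1431 Fev+-like cells and left 1213 unnamed. Part of the marker genes had been chosen by the study on these samples, and the classes rest on other genes of the same cells, so a class with its own hormone is a check of the label and no discovery.

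By the naming markers and by the held-out *Gcg*, the epsilon-like label was clearer in the Swiss Webster libraries than in the Fev-Cre library. The epsilon-like cluster passed 11 of 11 epsilon-like markers in both the v1 and the v2 Swiss Webster data, and the delta-like cluster 10 of 10 delta-like markers. These markers named the clusters, so passing them is no independent check. Held-out *Ghrl* was positive in 37.5% (6 of 16, E14.5 v1 batch 1) to 100% (2 of 2, E12.5 v1) of Swiss Webster epsilon-like cells. In Fev-Cre that share was 77.1%. *Sst* was positive in 50% (1 of 2, E12.5 v2) to 100% (30 of 30, E17.5 v1) of Swiss Webster delta-like cells, and in 56.5% of those in Fev-Cre. In the Fev-Cre library the epsilon-like cluster of 48 cells passed 5 epsilon-like and also 5 alpha-like markers, and was led by *Anpep* and *Serpina1a*. *Gcg* stood at 18016 CPM (the UMIs of the gene divided by all UMIs of the class and scaled to the same total in every sum) in that cluster, with 24 of 48 cells positive. In the epsilon-like cells of the 7 Swiss Webster libraries it stood at 0 to 113 CPM, with 0 of 151 cells positive (in the largest set, 0 of 57 cells at E14.5 v2, which allows up to 6.27%). Tests of *Ghrl*, *Mboat4*, *Gcg* and *Hhex* against alpha-like cells, and of *Ghrl* and *Mboat4* against Fev+-like cells, are therefore given with and without Fev-Cre. The other tests on epsilon-like cells, among them those of the list genes, include that library. At E12.5 v2 a cluster of 210 cells led by *Cartpt* and *Sct* held *Gcg* at 52038 and *Ghrl* at 3332 CPM. It passed 10 alpha-like markers, whose mean log2 excess over the other cells was 2.03, against −0.38 for the delta-like markers. The naming rule left it unnamed because 1 delta-like marker, *Ly6h*, and no alpha-like one was among its leading genes. Only 17 cells of that library are therefore called alpha-like.

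*Ghrl* was highest in epsilon-like cells in every library where each class had at least 5 cells, and was also carried by alpha-like cells in 7 of 8 libraries at 528 CPM or more. In epsilon-like cells it came to 54490 CPM at E12.5 v1 (2 cells only), 10359 and 34686 in the E14.5 v1 batches, 42275 at E17.5 v1, 13593 at E12.5 v2, 41511 at E14.5 v2, 73384 at E17.5 v2 and 22764 in Fev-Cre. In alpha-like cells the same libraries in the same order gave 2619, 1086, 3646, 30879, 31.6, 9002, 11054 and 528 CPM. The epsilon-like value was the higher in each of the 8 libraries, but the ranges of both classes overlapped, and in alpha-like cells E17.5 v1 was the highest and E12.5 v2 the lowest. The E12.5 v2 value rests on the 17 cells so named and leaves out the unnamed *Gcg*-rich cluster of 210 cells. Delta-like cells had a median of 1289 CPM over the 6 libraries with 5 or more such cells, with 123 as the lowest and 21165 as the highest. That highest value came from 7 cells of E14.5 v1 batch 2, of which 2 were *Ghrl*-positive. The 2 delta-like cells of E12.5 v2 held 17896 CPM, above the epsilon-like level of that library. In progenitors the level reached at most 223 CPM in Ngn3+-like and 64.7 CPM in Fev+-like cells, and beta-like cells, which make insulin, had 0 to 20.9 CPM. Stroma, endothelium and blood cells, which should lack the hormone, held 1.12 to 25.0 CPM, so beta-like levels did not exceed the highest of these. At E14.5 v2 beta-like cells held 16.3 CPM (9.14 to 26.9, exact Poisson interval, counting error only) against 8.39 CPM (6.48 to 10.7) in these. In Fev-Cre the values were 20.9 and 20.4 CPM. At E12.5 v2, at E17.5 v2 and in the v1 libraries with beta-like cells the beta-like value was the lower.

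*Mboat4* was highest in the same class as its substrate, and the class with the next highest level was delta-like rather than alpha-like. In epsilon-like cells of the Swiss Webster libraries it stood at 564, 650, 1123, 1198, 409, 474 and 673 CPM for E12.5 v1, E14.5 v1 batches 1 and 2, E17.5 v1, E12.5 v2, E14.5 v2 and E17.5 v2, and at 111 CPM in Fev-Cre. The Fev-Cre value was the lowest of the 8 and equaled the level of delta-like cells in the same library, 110 CPM. In delta-like cells with 5 or more cells the median was 117 CPM, between 58.0 at E17.5 v2 and 351 in E14.5 v1 batch 2. Alpha-like cells ranged from 17.47 to 98.7 CPM with a median of 27.9, Fev+-like cells from 8.68 to 27.3 and Ngn3+-like cells from 0 to 43.9. Beta-like cells held 0 to 1.09 CPM, against 0.216 to 0.516 CPM in stroma, endothelium and blood. Epsilon-like and delta-like cells were not set against each other in a test.

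**Figure D1:**
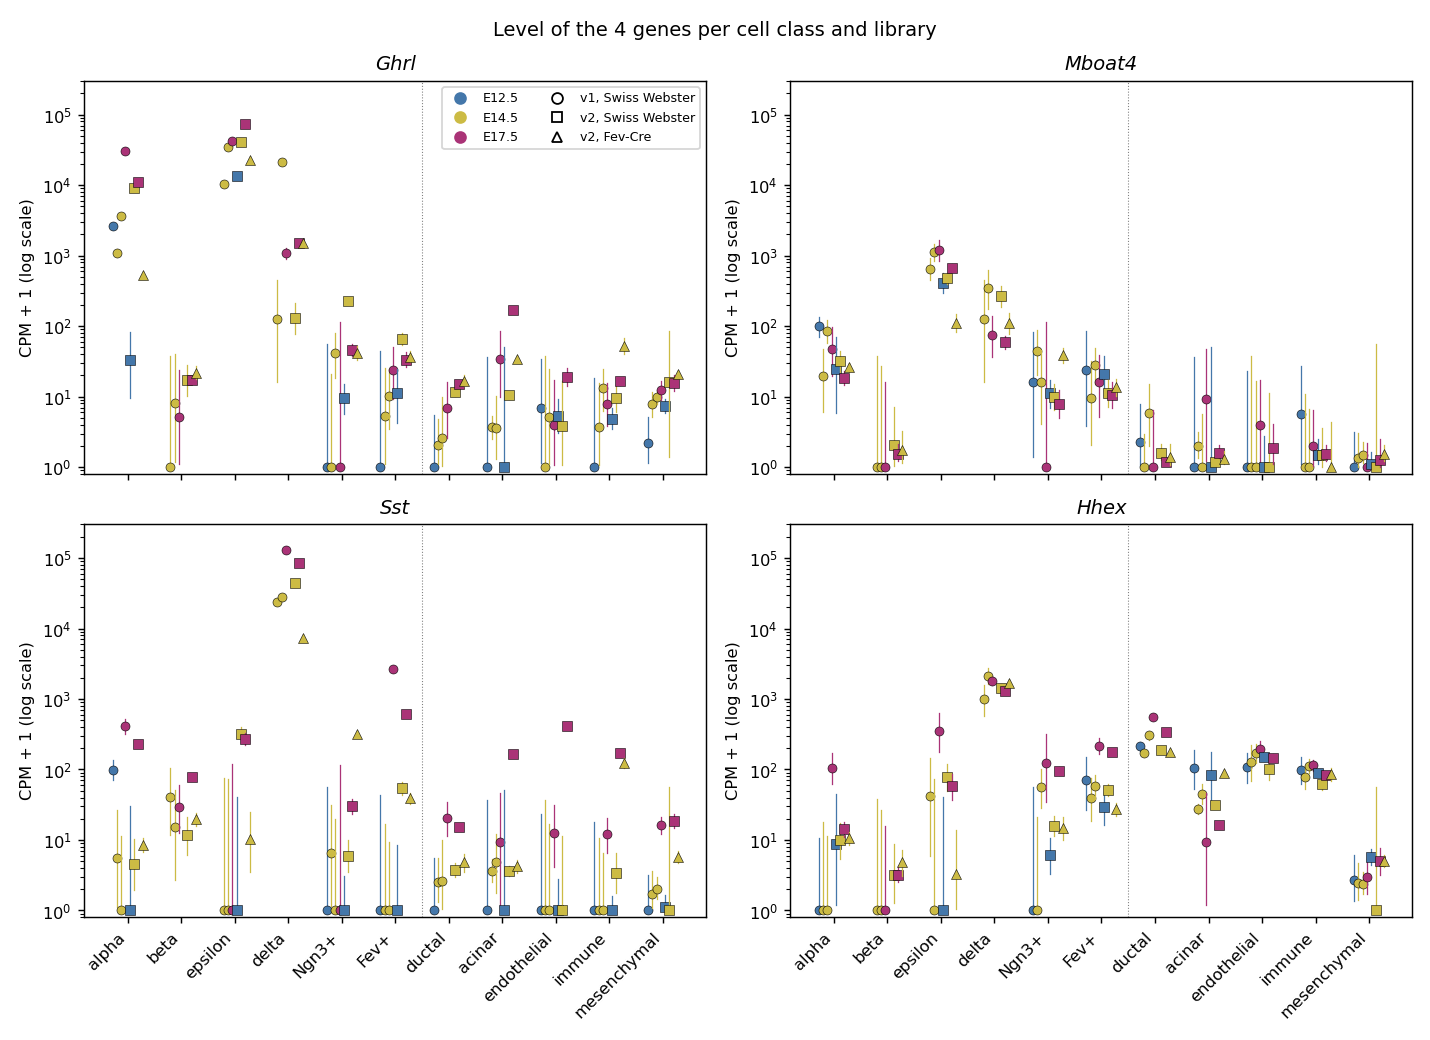
Level of each gene (CPM + 1, log axis) in endocrine classes left of the dotted line and other cell classes right of it, with 1 point per library with at least 5 cells of the class, colored by stage and shaped by kit and strain, and exact Poisson 95% intervals that cover counting error only. *Ghrl* and *Mboat4* peak in epsilon-like cells, *Sst* and *Hhex* in delta-like cells, and *Hhex* also stands at 168 to 550 in ductal-like cells.

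*Sst* stood at 7420 CPM or more in delta-like cells of every library with at least 5 of them and at 2999 or less in every other class, and *Hhex* was highest in the same cells but was also carried by ductal-like cells. *Sst* in delta-like cells came to 23763 and 28061 CPM in the E14.5 v1 batches, 129717 at E17.5 v1, 44782 at E14.5 v2, 84202 at E17.5 v2 and 7420 in Fev-Cre, with 711 in the 2 such cells of E12.5 v2. The Fev-Cre library lay below all other libraries with 5 or more delta-like cells, and both E17.5 libraries lay above all E14.5 ones. Fev+-like cells had 2630 CPM at E17.5 v1 and 620 at E17.5 v2, and no more than 53.3 CPM in any earlier library. In alpha-like, beta-like and epsilon-like cells *Sst* reached at most 409, 76.0 and 321 CPM. At E17.5 v2, where these 3 classes held 227, 76.0 and 273 CPM, endothelial cells held 408, with 1 positive cell of 242.

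*Hhex* in delta-like cells stood at 988, 2139, 1823, 1414, 1302 and 1680 CPM for E14.5 v1 batches 1 and 2, E17.5 v1, E14.5 v2, E17.5 v2 and Fev-Cre. Unlike *Sst*, it was as high in the Fev-Cre delta-like cells as in the others. Among the remaining endocrine classes Fev+-like cells had the highest median, 53.6 CPM, with 217.6 as their highest value, at E17.5 v1. Epsilon-like cells had a median of 40.6 CPM and 0 to 356, the highest from 11 UMIs in 9 cells at E17.5 v1, above the Fev+-like value there. Ngn3+-like cells had a median of 14.4 CPM, and beta-like cells stayed at or below 3.81. Outside the endocrine compartment, where Hhex acts in early foregut and vessel development, ductal-like cells had a median of 212 CPM with 168 as the lowest and 550 as the highest, over libraries with at least 5 such cells. Endothelial cells ranged from 100.7 to 196 CPM and immune cells from 60.4 to 113.7. Mesenchymal cells held at most 4.74 CPM.

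Classes were compared on UMI sums per library with edgeR's quasi-likelihood test, with library as a block, in 1 fit of 34 sums of at least 20 cells, and p-values were adjusted by Benjamini-Hochberg over all 8211 genes tested. Calls needed a fold of 2 or more besides an adjusted p under 0.05, and all differences below are log2 differences of levels. Because all 34 sums share this fit, sums from libraries without both classes of a contrast also shape its difference. Library numbers given for a contrast count only the libraries with both classes. For epsilon-like against alpha-like cells these were E14.5 v2, E17.5 v2 and Fev-Cre, 3 libraries that held 20 or more of each. In this contrast 5.33% of all genes were called. *Mboat4* was higher by 3.96 (SE 0.43, adjusted p = 2.63e-07), and it was called under every alternative tried, with 4.50 without Fev-Cre. *Ghrl* levels in these 3 libraries were 41511 against 9002, 73384 against 11054 and 22764 against 528 CPM. In the fit *Ghrl* was higher by 2.15 (SE 0.66, adjusted p = 0.0384). This call was lost with DESeq2 (1.76, adjusted p = 0.203), with other clusterings and without E14.5 v1 batch 2, E14.5 v2 or E17.5 v2, and it was kept without Fev-Cre (1.90, adjusted p = 0.0196). The *Ghrl* difference was thus less secure in this fit than that of its enzyme. *Gcg* was lower by 5.59 (SE 1.69, adjusted p = 0.0349), and by 11.29 without Fev-Cre. *Hhex* differed by 1.67 (SE 0.72, adjusted p = 0.158) and by 2.24 with a call without Fev-Cre (adjusted p = 0.0183), and *Sst* by 1.89 (SE 1.14, adjusted p = 0.349).

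All 4 genes were higher in delta-like than in beta-like cells over the 4 libraries with both, where 9.65% of all genes were called. *Sst* was higher by 9.83 (SE 1.27, adjusted p = 8.96e-07) and *Hhex* by 8.78 (SE 0.57, adjusted p = 9.14e-13). The ghrelin pair stood apart as well, *Ghrl* by 5.53 (SE 0.71, adjusted p = 6.95e-07) and *Mboat4* by 6.65 (SE 0.71, adjusted p = 2.54e-08). The *Mboat4* value rests on 0 to 7 UMIs in the beta-like sums, so its size is uncertain. Beta-like *Ghrl* levels were near those of stroma, endothelium and blood, so the size of the *Ghrl* difference is uncertain too. Without a scaling for composition (no TMM) the median of all genes in this comparison moved to 0.37, and 878 genes were called higher and 211 lower in place of 390 and 402. The 4 genes kept their direction and their calls there.

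Delta-like and alpha-like cells differed in opposite directions for the genes of the ghrelin pair, again over 4 libraries, with 5.41% of all genes called. *Mboat4* was higher in delta-like cells by 2.02 (SE 0.47, adjusted p = 0.00414), while *Ghrl* was lower by 3.10 (SE 0.65, adjusted p = 0.00148). The *Ghrl* direction did not hold in each library, since Fev-Cre delta-like cells held 1501 CPM against 528 in its alpha-like cells. Delta-like cells too few for the fit were also the higher in E14.5 v1 batch 2 (7 cells, 21165 against 3646) and E12.5 v2 (17896 against 31.6). At E12.5 v2 these were 2 delta-like and 17 alpha-like cells. The unnamed *Gcg*-rich cluster of 210 cells there, not counted as alpha-like, held *Ghrl* at 3332 CPM. Both calls were lost when classes needed 40 cells and when library was not a block, and that of *Mboat4* also without E14.5 v2 (1.63, adjusted p = 0.0671). *Sst* was higher by 9.38, *Hhex* by 6.89 and *Gcg* lower by 7.94, all called by edgeR's quasi-likelihood test.

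In alpha-like against beta-like cells 9.69% of all genes were called over 6 libraries. *Ghrl* was higher by 8.63 (SE 0.75, adjusted p = 8.39e-11) and *Mboat4* by 4.63 (SE 0.70, adjusted p = 4.64e-06). Each beta-like sum held 0 to 7 *Mboat4* UMIs, and beta-like *Ghrl* levels were near those of stroma, endothelium and blood. Both sizes are therefore uncertain. *Hhex* was higher by 1.89 (SE 0.68, adjusted p = 0.0400), a call that was lost with DESeq2 (1.75, adjusted p = 0.112), with other clusterings and without E14.5 v2, E17.5 v1 or E17.5 v2. *Sst* differed by 0.45 (adjusted p = 0.808). Without TMM the median of all genes moved to 0.42 and the calls were 888 higher and 233 lower in place of 394 and 402, with the same members called in the same direction.

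Against Fev+-like progenitors, with 5.57% of all genes called over 3 libraries, epsilon-like cells were higher in *Ghrl* by 10.18 (SE 0.73, adjusted p = 9.28e-12) and in *Mboat4* by 5.26 (SE 0.45, adjusted p = 3.46e-10), and by 10.41 and 5.97 without Fev-Cre. *Hhex* (−0.91, adjusted p = 0.466) and *Sst* (0.38, adjusted p = 0.914) did not pass the test. Between the progenitor states themselves, where 16.9% of all genes were called over 6 libraries, *Hhex* was higher in Fev+-like than in Ngn3+-like cells by 1.05 (SE 0.42, adjusted p = 0.0408). That call was lost under most alternatives, among them DESeq2 (1.32, adjusted p = 0.114). *Ghrl* (−1.36), *Mboat4* (−0.61) and *Sst* (−0.65) were not called. The *Sst* value turned on the Fev-Cre library, where Ngn3+-like cells held 315 CPM with 1 positive cell of 248, and was 4.11 with a call without that library (adjusted p = 0.000884).

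The other genes of both hormone systems were read from lists. Of 7 genes of the ghrelin system 4 passed the filter on low counts, and in epsilon-like against alpha-like cells 1 was called higher and 0 lower, where 2.68% of all genes were called higher and 2.65% lower. This was *Ffar2*, a receptor for short-chain fatty acids, higher by 1.58 (adjusted p = 0.000332). It stood at 802 and 539 CPM in epsilon-like cells of E14.5 v2 and E17.5 v2 against 189 and 130 in alpha-like cells. In Fev-Cre the values were 145 and 141 CPM, with little between them. *Ghsr*, the ghrelin receptor, and *Leap2*, which blocks it, had 0 UMIs in the epsilon-like and alpha-like sums. The median log2 difference of the 4 genes was 0.44, against −0.03 for all genes.

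Of 9 genes of the somatostatin system 5 were tested, and 2 were called lower in epsilon-like cells and 0 higher, with a median of −1.20. The prohormone convertase gene *Pcsk2* was lower by 2.94 (adjusted p = 0.0005) and the carboxypeptidase gene *Cpe* by 1.20 (adjusted p = 0.000436). Both enzymes trim many peptide hormones, glucagon among them. *Pcsk2* stood at 46.3 and 39.8 CPM in the epsilon-like cells of E14.5 v2 and E17.5 v2 and at 533 in those of Fev-Cre, where *Gcg* was also present, against 848 to 2456 in alpha-like cells of these libraries. Of the 10 regulators of islet cell type, all tested, 3 were called higher and 2 lower. *Pax4* was higher by 2.74 (adjusted p = 0.0415), *Rfx6* by 1.15 and *Nkx2-2* by 1.12, while *Pdx1* was among the lower ones, by 1.11 (adjusted p = 0.0399). *Pax4* stood at 39.2 and 39.8 CPM in the epsilon-like cells of both v2 Swiss Webster libraries, at 4.61 in those of Fev-Cre, and at 0.69 to 6.43 in the alpha-like cells of the 3. These p-values come from the same edgeR quasi-likelihood fit, adjusted by Benjamini-Hochberg over all genes.

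In delta-like against beta-like cells, where 4.75% of all genes were called higher and 4.9% lower, the ghrelin system had 0 of 4 tested genes called higher and 1 lower, *Pcsk1*, the convertase that also cleaves the ghrelin precursor (−1.12, edgeR adjusted p = 0.00701). Of the 5 tested genes of the somatostatin system 0 were called by edgeR or by DESeq2, with 3 at an unadjusted edgeR p below 0.05. *Cpe* had an adjusted p of 0.00389 there, but its difference of −0.79 was below 2-fold. Of the 10 regulators 1 was higher and 4 were lower. *Isl1* was higher by 1.60 (edgeR adjusted p = 8.78e-05), at 1286 to 1718 CPM in the delta-like and 147 to 832 CPM in the beta-like cells of these 4 libraries, which did not overlap. Among the lower ones were *Nkx2-2* (−1.66), *Pdx1* (−1.06) and *Neurod1* (−1.06).

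Whether a hormone and its partner were found in the same cell was asked in the 7539 endocrine cells with at least 2000 UMIs, each thinned at random to 2000 so that depth was equal, and 79 shallower cells were left out. A cell was called positive for a hormone at 5 or more UMIs and for *Mboat4* or *Hhex* at 1 or more. Intervals on shares are exact binomial 95% intervals and, like the Poisson intervals on levels, cover counting error only. In stroma, endothelium and blood cells of the same libraries (1148 to 5911 each, median 2879 to 11191 UMIs before thinning against 2941 to 10351 in endocrine cells), 0 to 0.0338% were positive for *Ghrl*, 0 to 0.0508% for *Sst*, 0 to 0.296% for *Gcg* and 0 to 0.151% for *Mboat4*. The background of *Hhex* there was higher, 1.05 to 6.61%, which includes the endothelial and immune cells that carry it. Acinar-like cells are not in this background and reached higher shares. At E17.5 v2 they were positive for *Ghrl* in 12 of 2045 (0.587%, 168 CPM) and for *Sst* in 4 of 2045 (0.196%, 164 CPM). In E14.5 v1 batch 1, 3 of 733 were positive for *Gcg* (0.409%). A v2 cluster of 38 cells named acinar-like was led by *Ghrl* and *Sst*. The cause was not tested. For 7 gene pairs the share in hormone-positive cells was set against that in all other endocrine cells of the library, and differences over libraries were tested with an exact two-sided sign-flip permutation test, adjusted over the 7 pairs.

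*Mboat4* was found with *Ghrl* more often than without it in 8 of 8 libraries. Of the *Ghrl*-positive cells 6 of 11 at E12.5 v1, 5 of 8 and 10 of 16 in the E14.5 v1 batches, 6 of 21 at E17.5 v1, 10 of 66 at E12.5 v2, 31 of 77 at E14.5 v2, 29 of 152 at E17.5 v2 and 20 of 73 in Fev-Cre held *Mboat4*. These shares ran from 15.2% at E12.5 v2 to 62.5% in both E14.5 v1 batches, while other endocrine cells held it at 2.28 to 8.14%, so the ranges did not overlap. The mean difference was 34.4 percentage points (SD 17.3, n = 8 libraries, exact permutation p = 0.00781, the smallest possible, adjusted p = 0.0273). The size held in hormone-expressing classes only (33.8 points) and without the tenth of cells with most UMIs (37.6 points). In both settings the unadjusted exact permutation p stayed at 0.00781, the smallest possible over 8 libraries. The adjusted p was 0.0547, a lost call that depends on the p-values of the other pairs. Without any 1 library the unadjusted exact permutation p was 0.0156, the smallest possible over 7 libraries, and it also adjusted to 0.0547. Of the Swiss Webster cells with both genes 70 were epsilon-like and 19 alpha-like.

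Within the epsilon-like cells of the Swiss Webster libraries, counted together, *Mboat4* was found in 70 of 99 *Ghrl*-positive cells (70.7%, 60.7 to 79.4) and in 28 of 52 below the *Ghrl* threshold (53.8%, 39.5 to 67.8). Those intervals overlap. In the alpha-like cells of the same libraries *Mboat4* was found in 19 of 166 with *Ghrl* (11.4%, 7.03 to 17.3) and 33 of 675 without *Ghrl* (4.89%, 3.39 to 6.80). Of these 166 cells 104 came from E17.5 v2, where 7 held *Mboat4*, while at E12.5 v1 it was 4 of 9 and in E14.5 v1 batch 2 it was 3 of 7. Within each of the 6 Swiss Webster libraries with *Ghrl*-positive cells of both classes, the share was the higher in the epsilon-like ones. The Fev-Cre library had the opposite order, with *Mboat4* in 12 of 30 *Ghrl*-positive alpha-like cells (40%, 22.7 to 59.4) and in 6 of 37 *Ghrl*-positive epsilon-like cells (16.2%, 6.19 to 32.0). The alpha-like class of Fev-Cre joined 2 clusters. The cluster of 376 cells passed 8 alpha-like and 4 epsilon-like markers, with *Mboat4* at 55.1, *Ghrl* at 1087.5 and *Gcg* at 7430 CPM. The cluster of 544 cells passed 9 and 1, with 7.2, 194.9 and 60444 CPM. The counts above were not split by cluster. All *Ghrl*-positive cells come from few pools, and their counts carry no test.

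*Ghrl* and *Gcg* occurred in the same cell in every library, and in the Swiss Webster libraries 116 such cells were alpha-like and 63 lay in unnamed clusters. In Swiss Webster libraries 47.3% of all *Ghrl*-positive cells were alpha-like (166 cells), against 28.2% that were epsilon-like (99) and 19.7% in unnamed clusters (69). The share of alpha-like cells with *Ghrl* was lowest at E12.5 v2, where 0 of 17 were positive (up to 19.5%) but the *Gcg*-rich cluster of 210 cells that stayed unnamed is not counted, and highest at E17.5 v1, where 13 of 30 were (43.3%, 25.5 to 62.6). At E17.5 v2 it was 104 of 413 (25.2%, 21.1 to 29.7), at E14.5 v2 31 of 198 (15.7%, 10.9 to 21.5) and in Fev-Cre 30 of 920 (3.26%, 2.21 to 4.62). In the other v1 libraries it was 9 of 52 at E12.5 (17.3%), 2 of 62 in E14.5 batch 1 (3.23%) and 7 of 69 in E14.5 batch 2 (10.1%), and the share of batch 1 was close to that of Fev-Cre.

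Over all endocrine cells, *Gcg* was found in 7 of 11, 2 of 8, 4 of 16, 7 of 21, 55 of 66, 22 of 77, 84 of 152 and 34 of 73 *Ghrl*-positive cells, in the library order used above. These shares lay between 25% and 83.3%, above the 3.98 to 50% of other endocrine cells in each library. The mean difference was 25.7 points (SD 16.1, higher in 8 of 8 libraries, exact permutation adjusted p = 0.0273). When only the hormone-expressing classes were compared, the difference was −3.70 points (exact permutation adjusted p = 0.633), so the pooled difference was not found among them. Within alpha-like cells *Gcg* was found in 116 of 166 cells with *Ghrl* (69.9%, 62.3 to 76.7) and in 464 of 675 without (68.7%, 65.1 to 72.2), which overlap. Within Swiss Webster epsilon-like cells it was found in 0 of 99 *Ghrl*-positive cells (up to 3.66%), whereas 18 of 37 (48.6%) in the Fev-Cre cluster held it. At E12.5 v2, 59 of the 66 *Ghrl*-positive cells lay in unnamed clusters and 55 of those held *Gcg*.

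**Figure D2:**
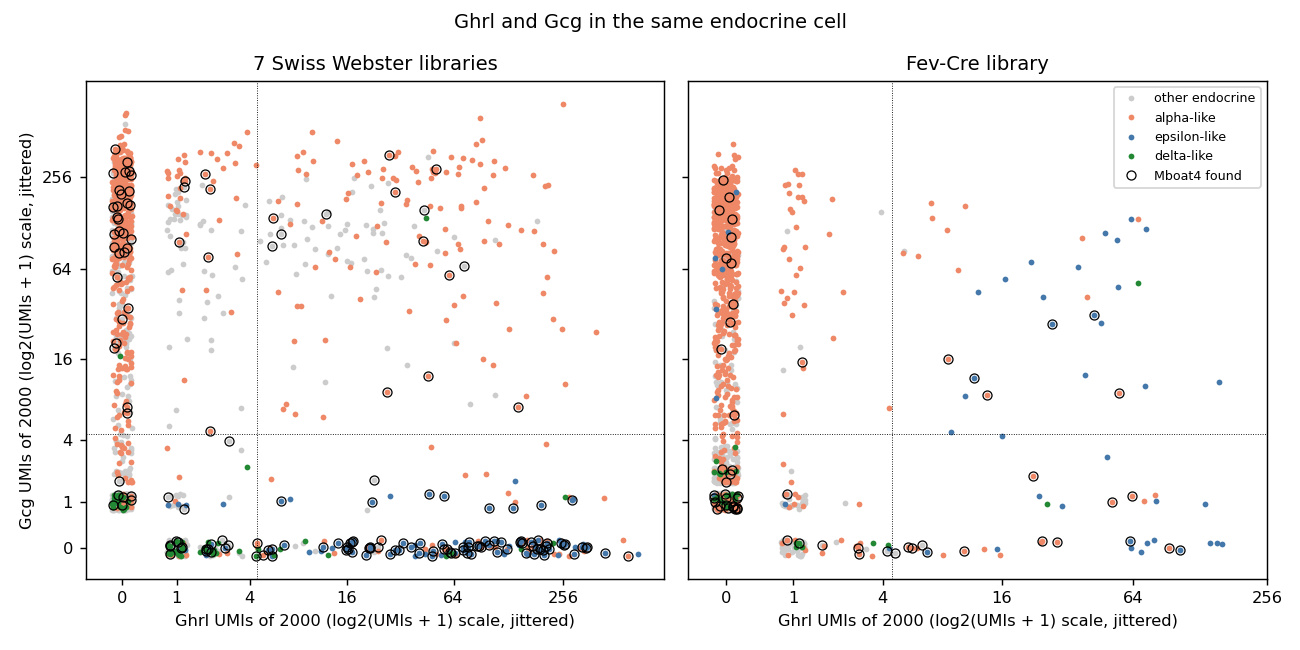
*Ghrl* against *Gcg* UMIs per cell out of 2000 (log2 of UMIs + 1, points jittered), with Swiss Webster cells in one panel and Fev-Cre cells in the other, colored by class, and black rings around cells with *Mboat4*; dotted lines stand at the 5 UMIs that make a cell positive, and cells with neither hormone are not shown. Swiss Webster epsilon-like cells hold 0 cells positive for both hormones, alpha-like cells hold 116, and rings mark 70 of the 99 *Ghrl*-positive epsilon-like cells but 19 of the 166 alpha-like ones.

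Depth moved with the presence of both hormones. In 6 of 8 libraries cells with *Ghrl* and *Gcg* had a higher median UMI count than cells with either hormone alone. At E12.5 v2 the median was 9909 with both, 8532 with *Gcg* alone and 7444 with *Ghrl* alone, and in Fev-Cre it was 8724, 8598 and 7626. In the v1 libraries, with 2 to 7 such cells each, it was 4949 to 7999 with both, 3347 to 6911 with *Gcg* alone and 2869.5 to 6421.5 with *Ghrl* alone. The exceptions were E14.5 v2, at 5625.5, 5677 and 4834, and E17.5 v2, at 10966.5, 11135 and 9098, where cells with *Gcg* alone were slightly deeper. Without the tenth of cells with most UMIs the mean *Ghrl*-with-*Gcg* difference was 22.5 points and its call was lost (exact permutation adjusted p = 0.0547). The unadjusted exact permutation p was 0.0156, above the smallest possible 0.00781, so the difference was not positive in every library there. Doublets of 2 endocrine cells were not called, and their part in these counts was not tested.

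*Hhex* was found in most *Sst*-positive cells. The counts were 5 of 5 in E14.5 v1 batch 1, 32 of 38 at E17.5 v1, 21 of 23 at E14.5 v2, 122 of 155 at E17.5 v2 and 27 of 33 in Fev-Cre, and the other 3 libraries had fewer than 5 *Sst*-positive cells. Shares of 78.7 to 100% stood against 2.09 to 7.61% in other endocrine cells, with a mean difference of 83.1 points (SD 9.60, higher in 5 of 5 libraries). An exact test over 5 libraries cannot go below 0.0625, the value it gave (adjusted p = 0.0875). *Mboat4* was also found more often with *Sst* than without it, by 11.8 points (SD 13.3, higher in 5 of 5 libraries, exact permutation adjusted p = 0.0875), in 1 of 5, 3 of 38, 9 of 23, 9 of 155 and 3 of 33 cells. The first and the third of these lay far above the rest, and the difference was 6.11 points without E14.5 v2 and 24.5 points, past the threshold over 6 libraries, when all UMIs were used without thinning (exact permutation adjusted p = 0.0438). *Gcg* was found in 0 of 5, 0 of 38, 0 of 23, 5 of 155 and 2 of 33 *Sst*-positive cells, lower than in other endocrine cells by 14.0 points (SD 4.85, lower in 5 of 5 libraries, exact permutation adjusted p = 0.0875). *Ghrl*-positive cells held *Hhex* less often by 2.23 points (SD 3.22, adjusted p = 0.128) and *Sst* less often by 1.54 points (SD 4.17, adjusted p = 0.305), both by the exact permutation test and neither past the threshold.

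Within delta-like cells of the Swiss Webster libraries *Hhex* was found in 169 of 193 cells with *Sst* (87.6%, 82.1 to 91.9) and 26 of 33 without (78.8%, 61.1 to 91.0), intervals that overlap. *Mboat4* was in 21 of 193 (10.9%, 6.86 to 16.1) and 6 of 33 (18.2%, 6.98 to 35.5). In Fev+-like progenitors, which were named without either gene, 15 of 963 cells were *Sst*-positive, and *Hhex* was found in 11 of them (73.3%, 44.9 to 92.2) against 49 of 948 others (5.17%, 3.85 to 6.78). Of these 15 cells 5 were from E17.5 v1, 7 from E17.5 v2 and 3 from E14.5 v2. In Fev-Cre, 23 of 26 *Sst*-positive delta-like cells held *Hhex* (88.5%).

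**Figure D3:**
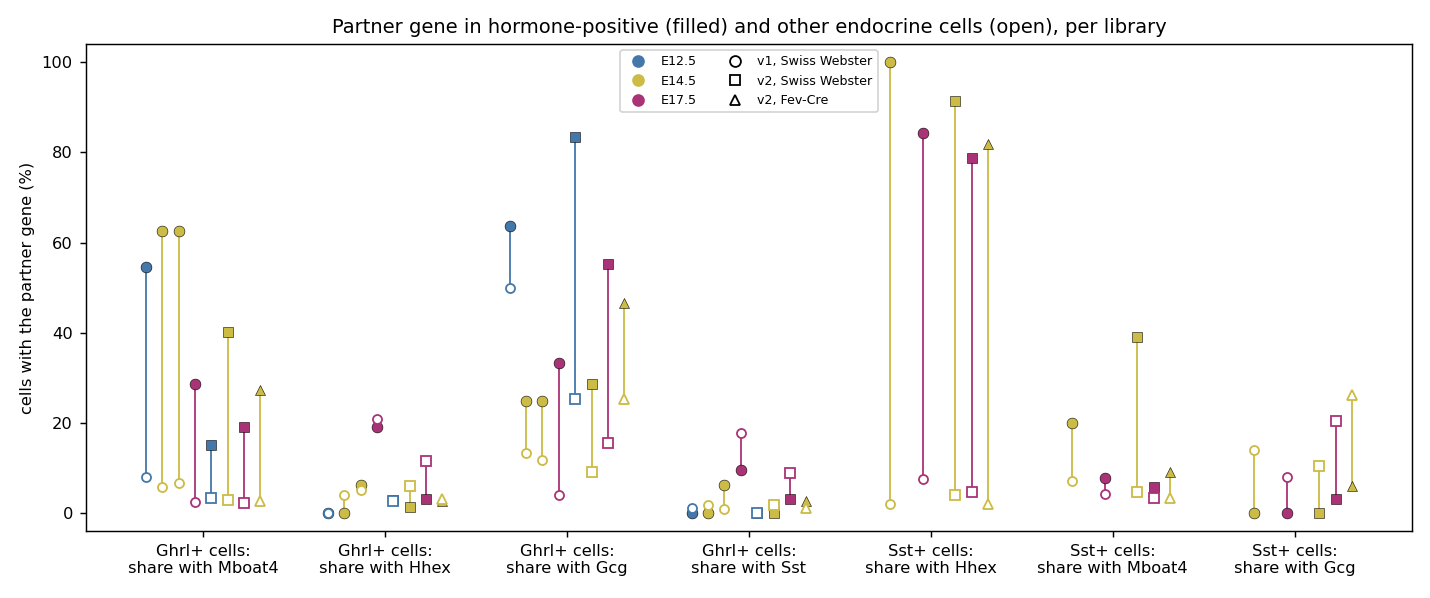
Share of cells (percent) in which the partner gene was found, for 7 gene pairs and each library with at least 5 hormone-positive cells, with filled points for hormone-positive cells, open points for all other endocrine cells, color for stage and shape for kit and strain. Filled points stand above open ones in every library shown for *Ghrl* with *Mboat4*, *Ghrl* with *Gcg*, *Sst* with *Hhex* and *Sst* with *Mboat4*, and below for *Sst* with *Gcg*.

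From E12.5 to E17.5 *Sst* and *Hhex* rose in the sum of all endocrine cells, while *Ghrl* and *Mboat4* did not pass the test. Stages were compared over the 7 Swiss Webster libraries with kit as a block, so each day had 2 or 3 libraries. E12.5 v1, E14.5 v1 batch 2 and E17.5 v1 belonged to the same batch, collected on another day than E14.5 v1 batch 1, whereas each v2 stage was prepared on its own day, so that stage and day cannot be told apart in the v2 kit. In these sums 7.96% of 10036 genes were called. For *Sst* the E12.5 libraries gave 66.4 CPM (v1) and 3.10 (v2), those of E14.5 gave 446, 591 and 824, and those of E17.5 gave 18487 (v1) and 4960 (v2). The 38 *Sst* UMIs of E12.5 v1 all lay in alpha-like cells. Of 97 endocrine cells there 1 was *Sst*-positive, and it was also *Gcg*-positive. Every later day lay above the one before it without overlap, and the E17.5 level was higher than that at E12.5 by 9.16 log2 (SE 1.18, edgeR adjusted p = 0.000438). For *Hhex* the E12.5 libraries gave 10.5 and 35.2 CPM, those of E14.5 gave 38.0, 70.3 and 59.99, and those of E17.5 gave 344 and 103, a rise of 3.12 (SE 0.53, edgeR adjusted p = 0.0032). The call for *Hhex* was lost without the kit term (3.21, adjusted p = 0.0646).

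The makeup of the endocrine cells changed at the same time, which a sum over classes carries with it. Delta-like cells numbered 0 of 103 and 2 of 818 at E12.5 and 34 of 265 and 156 of 1818 at E17.5. More cells of a class and more RNA per cell cannot be told apart in these sums. For *Ghrl* the E12.5 libraries gave 2607 and 1272 CPM, those of E14.5 gave 812, 2507 and 2984, and those of E17.5 gave 6177 and 3441 (1.54, SE 0.61, edgeR adjusted p = 0.156), so both E17.5 values were above all earlier ones without a call. Without E14.5 v1 batch 1, when each kit holds 1 library per stage and the v1 ones share a batch, *Ghrl* was called (1.55, edgeR adjusted p = 0.0295), as were *Sst* (9.31) and *Hhex* (2.99). That fit called more genes in all than the 799 of the main fit, and the *Ghrl* difference hardly moved from 1.54. *Mboat4* was 85.6 and 24.8, then 52.0, 78.3 and 33.5, then 58.4 and 19.6 CPM (−0.17, SE 0.33, edgeR adjusted p = 0.829). For *Mboat4* the v1 library was the higher at both E12.5 and E17.5.

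**Figure D4:**
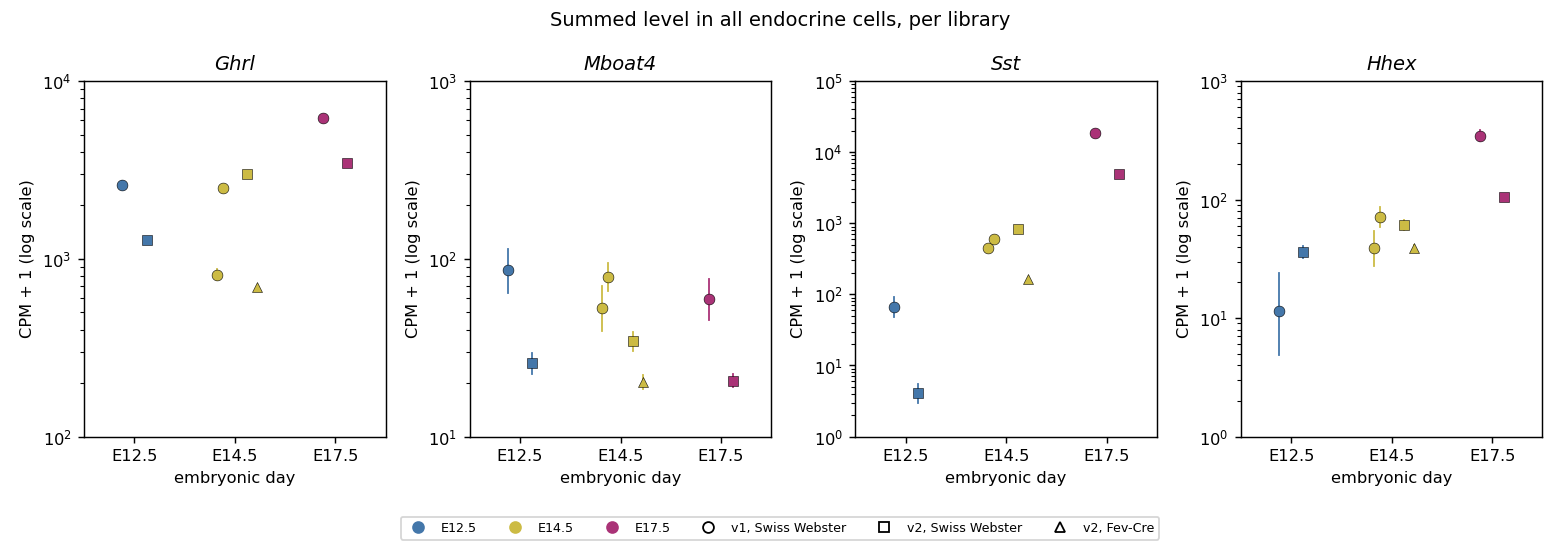
Level of each gene in all endocrine cells together (CPM + 1, log axis) against embryonic day, with 1 point per library marked by kit and strain and exact Poisson 95% intervals. *Sst* climbs from 66.4 and 3.10 at E12.5 to 18487 and 4960 at E17.5, *Hhex* climbs less, *Ghrl* overlaps between E12.5 and E14.5, and *Mboat4* overlaps on all days.

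Fev+-like cells could be compared between stages on their own, with 2.54% of 6732 genes called. In the v2 kit the Fev+-like cells of these stages came from different clusters of the class, 92 of 92 at E12.5 from one led by *Fev* and *Chgb* and 266 of 266 at E17.5 from another led by *Cd79a* and *Ppp1r14c*, so stage and cluster cannot be told apart there. The v1 cells shared their clusters. For *Hhex* the E12.5 libraries gave 69.5 and 28.4 CPM, those of E14.5 gave 39.0, 56.8 and 50.4, and those of E17.5 gave 218 and 175, a rise of 2.35 log2 (SE 0.40, edgeR adjusted p = 0.00553). *Sst* had 0 UMIs of 579763 at E12.5 and 850 CPM at E17.5, at least 164-fold higher when 3 counts over the E12.5 group are taken as the floor (edgeR adjusted p = 0.00377). This bound pools both kits and rests mostly on E12.5 v2, which gave 493177 of these UMIs against 86243 from E12.5 v1. Few cells carried *Sst*, with 5 of 76 positive at E17.5 v1 and 7 of 266 at E17.5 v2. Both calls were lost without E12.5 v2 (adjusted p = 0.398 for *Hhex* and 0.0819 for *Sst*) and without the kit term. *Ghrl* (2.11, edgeR adjusted p = 0.292) and *Mboat4* (−0.92, edgeR adjusted p = 0.705) did not pass the test.

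The other classes held too few libraries with 20 cells at both ends for a test of stage, and their levels are a description. In epsilon-like cells *Ghrl* was lowest at the earliest day of the v2 kit, at 13593 CPM, and the later v2 libraries gave 41511 and 73384. The 2 cells of E12.5 v1 held 54490 CPM, and the v1 libraries with 9 or more cells gave 10359 and 34686 (E14.5 batches), then 42275 (E17.5). *Mboat4* in the same cells spanned less, with 409, 474 and 673 CPM in v2 and 650, 1123 and 1198 in v1, and v1 lay above v2 at E14.5 and E17.5. In delta-like cells *Sst* was higher at E17.5 than at E14.5 in both kits, while *Hhex* was not, at 1414 and 1302 CPM in v2 and 988, 2139 and 1823 in v1.

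In the Fev-Cre library the reporter transcripts were read in hormone-positive cells. eGFP was found in 33 of 33 *Sst*-positive cells (89.4 to 100%), in 666 of 701 *Gcg*-positive cells (95.0%, 93.1 to 96.5) and in 58 of 73 *Ghrl*-positive cells (79.5%, 68.4 to 88.0). The *Ghrl* interval lay below that of *Gcg*, but both cover counting error only within the same pool, and 34 cells were in both sets. The eGFP level also differed, at 1328 CPM in *Ghrl*-positive, 1771 in *Gcg*-positive and 2549 in *Sst*-positive cells. Fewer cells with eGFP and less eGFP RNA per cell cannot be told apart in these shares, and the difference was not tested. Among *Ghrl*-positive cells eGFP was found in 29 of 34 with *Gcg* (85.3%, 68.9 to 95.0) and 29 of 39 without (74.4%, 57.9 to 87.0), which overlap. Stroma, endothelium and blood held eGFP in 129 of 3112 cells (4.15%, 3.47 to 4.91). tdTomato was found in 0 of 73 *Ghrl*-positive cells (up to 4.93%), 1 of 33 *Sst*-positive cells and 102 of 3112 of the other cells (3.28%), so its absence at this depth does not separate cells that recombined from those that did not. Cells entered this library through a sort on GFP, so these shares are those of the sorted mix.

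Over the 34 class-by-library sums, the genes whose log level followed each member most closely among 8084 with a mean of at least 10 CPM were ranked by Pearson's r, as a description. For *Ghrl* they were *Ctsl* (0.84), *Gm11837* (0.82), *1110007C09Rik* (0.81), *Uap1l1* (0.81) and *Anpep* (0.78). For *Mboat4* they were *Nefm* (0.82), *Rgs17* (0.78), *Lrrtm3* (0.77), *Plekha1* (0.77) and *P3h4* (0.75). For *Sst* they were *Fam159b* (0.76), *Dhrs7* (0.69), *Spock3* (0.69), *Ppy* (0.65) and *Hhex* itself (0.64), where *Ppy* encodes pancreatic polypeptide. For *Hhex* they were *Ppp1r14c* (0.76), *Cd24a* (0.74), *Ssbp2* (0.73), *Fam159a* (0.69) and *Cldn3* (0.69). *Anpep*, *Nefm*, *Rgs17*, *Fam159b* and *Cd24a* were among the genes that named the classes, and sums of the same library share its depth and kit.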

How the data were processed

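The deposited matrices held UMI counts per gene and cell, which the authors made with Cell Ranger 1.1 (v1 kit) and 2.1 (v2 kit) on mm10, with eGFP and tdTomato added to the reference of the Fev-Cre reporter matrix. The 2 wells of E17.5 v2 were technical replicates and were summed. Barcodes with at least 200 genes were kept. Compartments and endocrine classes came from Leiden clustering (2000 variable genes, 20 components, 20 neighbors, resolution 1; leidenalg 0.10.2, Python 3.11.15). Cells carrying genes of mutually exclusive compartments were removed as doublets. Summed counts of at least 20 cells per class and library were tested with edgeR 4.0.16 (quasi-likelihood, TMM, Benjamini-Hochberg), and DESeq2 1.42.0 was an alternative. The tests were tried on simulated counts first. Members, lists and named genes were chosen with earlier results of these data known: the 4 members, *Gcg*, the list genes called in a contrast, and the 5 genes most like each member. *Ghsr* and *Leap2* were named from the lists after their values were seen, and some list genes are not reported here by name. Lists and markers came in part from the study's own lists on these samples. P-values of co-detection rest on how within-library differences vary between libraries. Those of the class comparisons measure the spread of class-by-library sums left after library is taken out, shared over all classes. Those of the stages measure the spread between libraries left after stage and kit are taken out.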

Additional observations from a re-analysis of the deposited data

Results flagged for a closer look

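Of 27 sets of library values checked, 1 held a library far from the others, and chance alone gives about 1 in 20 such sets. *Ghrl* in delta-like cells stood at 131 CPM at E14.5 v2 (17 UMIs in 26 cells) and at 1076 to 1533 CPM in the other 3 libraries with at least 20 delta-like cells. On the log2(CPM + 1) scale the gap to the nearest of the others was 0.856 of the whole range, above the critical value of 0.829 for 4 values, which the same values on the linear scale do not pass. In the same cells *Mboat4* was 270 CPM, against 58.0 to 110 in those 3 libraries.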

How the results depend on the processing

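Of 700 alternative values over 54 results, 601 kept their direction and their side of the threshold and 19 reversed. No paired analysis was possible because the shared replicate numbers belong to batches of E14.5 v1 and to technical wells of E17.5 v2, which were summed, so that replicate numbers pair no stages. The comparisons of classes had library as a block. The v1 libraries of batch 2 share a batch across stages. The fit without batch 1, with kit as a block, is therefore one within batch for v1, and there *Ghrl* over all endocrine cells was called between E17.5 and E12.5 (log2 difference 1.55, edgeR adjusted p = 0.0295). More genes in all were called there than in the main fit.

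*Ghrl* in epsilon-like against alpha-like cells was no longer called with DESeq2 (1.76), without a library term (2.46), with the members and list genes among the variable genes (2.08), at resolution 0.6 (1.84), at resolution 2 (1.99) and with doublets kept (2.12), and without single libraries it ranged from 1.83 to 2.63. *Hhex* over all endocrine cells, E17.5 against E12.5, was 3.21 and not called without the kit term. *Hhex* in epsilon-like against Fev+-like cells turned to 2.12 at resolution 2. *Mboat4* in Fev+-like against Ngn3+-like cells turned to 0.047 with the members among the variable genes and 0.62 at resolution 0.6, and ranged from −0.80 to 0.12 without single libraries. *Mboat4* over all endocrine cells between stages ranged from −0.58 to 0.17 without single libraries. *Sst* in Fev+-like against Ngn3+-like cells turned to 0.30 with at least 10 cells, 2.54 without a library term and 0.30 with doublets kept, and ranged from −1.74 to 4.11. *Sst* in alpha-like against beta-like cells turned to −1.77 with DESeq2, −0.43 with the members among the variable genes, −0.94 at resolution 0.6 and −1.09 at resolution 2. *Sst* in epsilon-like against Fev+-like cells turned to −0.80 without a library term and −0.29 at resolution 0.6, and ranged from −1.30 to 1.26. The causes were not tested.

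*Ghrl* with *Gcg* was −3.70 points in hormone-expressing classes only, 22.5 without the tenth of cells with most UMIs and 21.1 to 27.8 without single libraries. *Ghrl* with *Mboat4* was 33.8, 37.6 and 31.2 to 37.7 points under the same settings. Each of these lost its call, with an adjusted p of 0.0547 apart from the −3.70 points (0.633). The settings on classes and deep cells kept 8 libraries, and there the unadjusted exact p of *Ghrl* with *Mboat4* stayed at 0.00781, the smallest possible. Over 7 libraries the unadjusted exact p was 0.0156 throughout, again the smallest possible. *Ghrl* with *Sst* turned to 1.24 with a threshold of 2 UMIs and 1.05 without thinning. *Ghrl* with *Hhex* was −2.89 and called with mixed clusters kept, a setting chosen after seeing the data. Without thinning *Sst* with *Gcg*, *Hhex* and *Mboat4* was −13.9, 84.5 and 24.5 points and called.

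Counts of called genes moved by over 1.5 times in several settings. Without the filter on low counts they were 1225 in place of 792 (delta-like against beta-like), 1411 for 796 (alpha-like against beta-like), 2346 for 1386 (Fev+-like against Ngn3+-like), 715 for 444 (delta-like against alpha-like), 327 for 171 (Fev+-like stages) and 1389 for 799 (all endocrine stages). Without a library term they were 156 for 438 (epsilon-like against alpha-like), 464 for 792, 205 for 457 (epsilon-like against Fev+-like) and 229 for 444. Epsilon-like against alpha-like gave 186 without E14.5 v2, 142 without E17.5 v2 and 822 without Fev-Cre, and without E17.5 v2 delta-like cells gave 437 against beta-like and 230 against alpha-like. For Fev+-like and all endocrine stages they were 6 and 134 without the kit term, 78 and 400 with Fev-Cre added, 35 and 216 without E12.5 v2, and 61 and 206 without E17.5 v2. All endocrine stages gave 1230 without E14.5 v1 batch 1.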
